A study of Mus musculus with 2 samples.

Results

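The 10 serotonin receptor genes Htr1a, Htr1b, Htr1d, Htr1f, Htr2a, Htr2c, Htr3a, Htr4, Htr5a and Htr7 were taken by symbol from the 32285 genes of the deposited matrices, which list 14 serotonin receptor genes in all. They were followed through the neurons and glia of the ventral tegmental area (VTA), the midbrain region that holds dopamine neurons projecting to the forebrain. Single-nucleus 3′ libraries on the 10x Genomics platform were made from adult mice, 1 library of wild-type mice (WT) and 1 of mice with chronic constriction injury (CCI), in which the left sciatic nerve is constricted to model neuropathic pain and the right nerve was exposed and not ligated. The number of animals behind each library, their strain and sex and the side of the brain sampled are not given in the sources used here. With 1 library per condition no test between conditions was possible, so every difference describes this pair of libraries, and every interval (95%) covers counting error only.

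Serotonin receptors fall into families that differ in what they do to the cell. The Htr1 and Htr5 receptors couple to inhibitory Gi/o proteins and lower cyclic AMP, Htr2 receptors couple to Gq and release calcium from stores, Htr4 and Htr7 couple to Gs and raise cyclic AMP, and Htr3a forms an ion channel. The VTA receives serotonin fibres from the raphe nuclei, and Htr2c is well known there for restraining dopamine neurons through nearby GABA neurons.

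The libraries differed in depth and in the neurons they held. The WT library had 14114 barcodes with a median of 975 unique molecular identifiers (UMIs, each standing for 1 captured RNA molecule), and the CCI library 13736 barcodes with a median of 3652. After filtering, 12189 WT and 12825 CCI nuclei remained, of which 5967 and 6646 were neurons, and 54 barcode sequences occurred in both libraries. Group names below rest on marker genes and stand for dopaminergic-like, astrocyte-like and so on. Dopaminergic neurons, with Slc6a3, Th and Ddc, made up 14.1% of the WT and 5.73% of the CCI neurons. A subcluster with orexin (Hcrt), a peptide of the hypothalamus, held 7 WT and 305 CCI nuclei, so the neurons compared were not the same mixture.

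Promoter sequences are shown for 3 receptors on which the results turn: Htr2c, which had the most UMIs, and Htr1f and Htr7, which had their highest level in the same neuron subcluster. Each runs from 250 bases before to 50 bases after the start of the gene in RefSeq (GRCm38.p6), 5′ to 3′ on the strand of the gene, at chrX:146962263-146962562 (plus strand) for Htr2c, chr16:65105735-65106034 (minus strand) for Htr1f and chr19:36057311-36057610 (minus strand) for Htr7. Capitals mark matches, on either strand, to 1 of 3 classical promoter motifs. The GC box was searched as GGGCGG. For the CCAAT box the letters of its name were used, and for the TATA box the letters were TATAAA. The motifs share no overlapping match in these windows.
Htr2c: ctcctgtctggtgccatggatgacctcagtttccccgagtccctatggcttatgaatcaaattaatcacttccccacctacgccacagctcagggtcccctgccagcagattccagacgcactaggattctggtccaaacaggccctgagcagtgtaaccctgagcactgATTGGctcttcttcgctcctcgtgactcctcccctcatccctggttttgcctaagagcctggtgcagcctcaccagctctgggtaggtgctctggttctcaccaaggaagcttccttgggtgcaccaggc
Htr1f: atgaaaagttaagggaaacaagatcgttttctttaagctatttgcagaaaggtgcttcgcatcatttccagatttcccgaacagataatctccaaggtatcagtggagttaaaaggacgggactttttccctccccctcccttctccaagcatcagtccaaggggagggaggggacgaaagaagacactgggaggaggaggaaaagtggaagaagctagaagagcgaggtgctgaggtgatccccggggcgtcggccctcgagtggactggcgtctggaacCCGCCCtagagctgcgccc
Htr7: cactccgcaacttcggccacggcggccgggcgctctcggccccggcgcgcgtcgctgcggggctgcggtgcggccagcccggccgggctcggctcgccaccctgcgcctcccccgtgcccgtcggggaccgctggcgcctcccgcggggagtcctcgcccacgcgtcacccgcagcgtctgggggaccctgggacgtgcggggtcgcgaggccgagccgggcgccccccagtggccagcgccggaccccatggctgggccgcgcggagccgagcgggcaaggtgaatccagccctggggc

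Of the 10 receptors, 8 had a promoter in the RefSeq table. The Htr2c promoter held 1 CCAAT match, the Htr1f promoter 1 GC-box match and the Htr7 promoter none of the 3 motifs. Among 32851 promoters of the same length, 37.4% held CCAAT, 35.7% the GC box and 13.6% the TATA letters. Base composition set Htr7 apart from Htr2c and Htr1f. CG pairs, the sites of DNA methylation, numbered 46 for Htr7, more than in 98.4% of all promoters. They numbered 5 for Htr2c and 13 for Htr1f, against a median of 7 over all promoters. The share of G and C was 81% for Htr7, 56.3% for Htr2c and 53% for Htr1f, against a median of 52.7%. These matches describe the letters of the window and no chromatin or methylation was measured.

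Htr2c, the Gq-coupled receptor, had the most UMIs of the 10 in neurons, 7455 in WT and 26781 in CCI. The gene (ENSMUSG00000041380) lies on chromosome X at 146962513 to 147197277 on the plus strand (mm10, GENCODE vM21), and its exons overlap no other gene. Over all neurons its level was 682 CPM (667 to 698; CPM are UMIs scaled to a common total per group) in WT and 565 (559 to 572) in CCI. Neuron subclusters differed from each other far more than the libraries did, from 113 to 2061 CPM over 16 WT subclusters of at least 50 nuclei and from 53.2 to 1879 CPM over 21 CCI subclusters.

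The highest Htr2c level was in subcluster 9, GABA neurons of the Gata3 type led by the transcription factor gene Pax5, at 2061 CPM (1959 to 2167) in WT and 1879 (1801 to 1960) in CCI. These nuclei were 5.70% of WT neurons and supplied 20.4% of the neuronal Htr2c UMIs, and in CCI 2.05% supplied 8.06%. Next came subcluster 8, an Ebf-type group led by Ebf2 and Cdh23 with the substance P gene Tac1, at 1612 CPM in WT and 1450 in CCI. In neither library did the interval of subcluster 8 reach that of subcluster 9. Both groups were highest in both libraries, and no serotonin receptor gene took part in the clustering.

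With every nucleus thinned to 1000 UMIs and shallower nuclei left out, an Htr2c UMI was present in 74.0% (68.8 to 78.7) of WT and 71.3% (63.0 to 78.7) of CCI Gata3-type nuclei, with 21 WT nuclei and 0 CCI nuclei left out. Without thinning the shares were 84.7% and 99.3%, at median depths of 2028 and 7460 UMIs. In subcluster 8 the thinned shares were 68.0% and 66.1%, and the unthinned shares 76.3% and 92.2%. Mature oligodendrocytes gave 13.9% and 13.4% after thinning (11.8% and 25.2% before, at median depths of 700.0 and 1900 UMIs, with 3208 WT and 114 CCI nuclei left out). The oligodendrocyte share is used as background, since free RNA gives UMIs in nuclei that do not express a gene. Free RNA was not measured, and whether oligodendrocytes express these receptors was not tested.

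**Figure D1:**
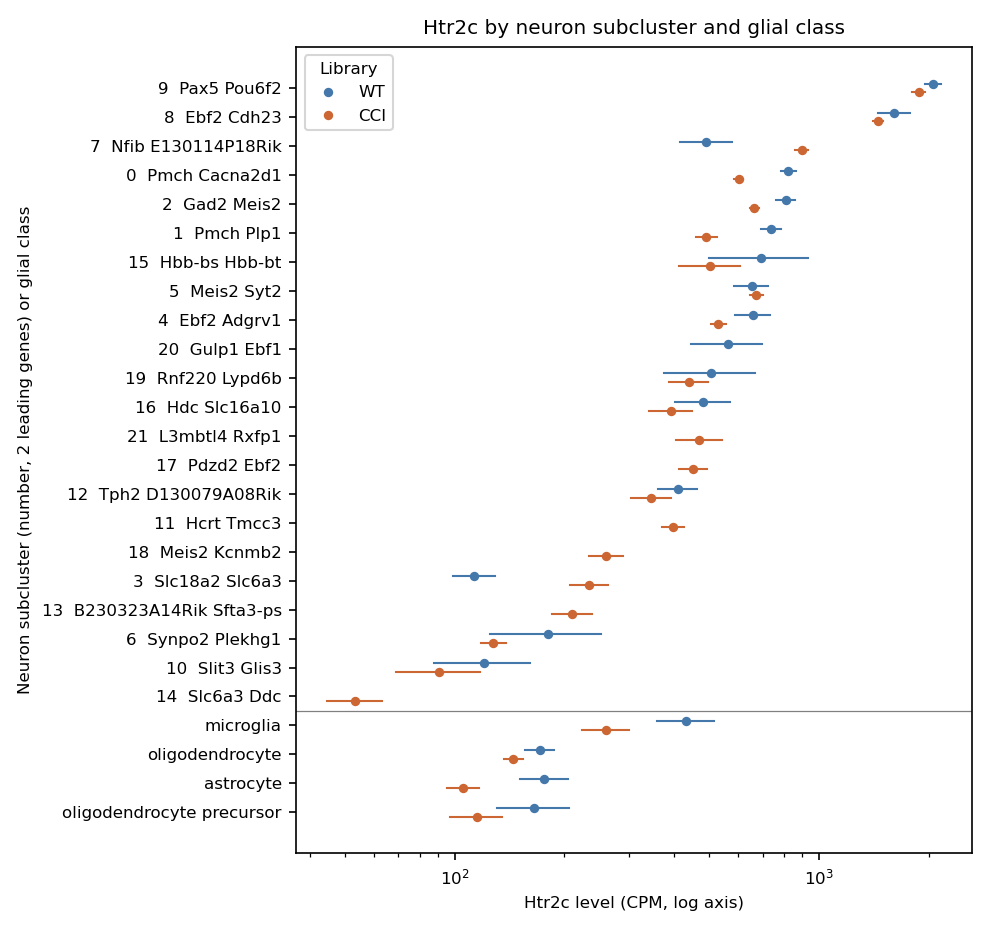
Htr2c level in CPM (log axis) in each neuron subcluster of at least 50 nuclei and in 4 glial classes, for the WT and CCI libraries; points are levels and bars exact 95% Poisson intervals. Subclusters 9 and 8 are highest in both libraries, and the dopaminergic subclusters 3 and 14 and the Slit3 subcluster 10 lie among the lowest neurons.

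Dopaminergic neurons stood at the other end. Htr2c was at 113 CPM (98.8 to 129) in WT and 110 (99.7 to 122) in CCI, a log2 ratio of -0.04 (-0.28 to 0.20). That was 14.03% of the level in the other neurons in WT and 18.3% in CCI, while the median of 8 general neuron markers in the same nuclei was 116% and 117% of theirs. After thinning, 10.7% (8.61 to 13.2) of WT and 11.02% (8.06 to 14.6) of CCI dopaminergic nuclei had an Htr2c UMI (19.7% and 42.8% before). These thinned shares were at or below those of oligodendrocytes, so the class as a whole was not told apart from that background. The source of its Htr2c UMIs was not tested. The parts of the class differed in level. Dopaminergic nuclei with more Sox6-type marker UMIs had 101 CPM (84.4 to 119) in WT and 68.8 (58.9 to 79.9) in CCI. Those with more Calb1-type marker UMIs had 162 CPM (107 to 235) in 80 WT nuclei, near the 171 CPM of oligodendrocytes, and 192 CPM (164 to 223) in 95 CCI nuclei, above the 145 CPM (136 to 153) of oligodendrocytes. The thinned share in the Calb1-type nuclei, 14.1% (6.97 to 24.4) in WT and 11.6% (5.92 to 19.8) in CCI (18.8% and 46.3% before), did not resolve this difference.

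The equal dopaminergic totals covered unequal parts. Subcluster 3, with 839 WT and 151 CCI nuclei, had 113 CPM in WT and 234 in CCI, and subcluster 14, with 230 nuclei all from CCI, had 53.2 CPM. Without subcluster 14 the log2 ratio was 1.05 (0.79 to 1.31). The CCI nuclei of subcluster 3 also had less Slc6a3, the dopamine transporter gene, than those of WT (431 against 652 CPM), more GABA-neuron marker UMIs (55.7 against 26.0 CPM) and more vesicular glutamate transporter UMIs (62.7 against 16.3 CPM), and in subcluster 14 these were 743, 15.2 and 7.60 CPM. The part of these markers in the difference was not tested.

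Glial Htr2c levels lay near those of the neuron markers in the same nuclei. Htr2c was at 176 CPM in WT and 105 in CCI astrocytes, 171 and 145 CPM in oligodendrocytes, 165 and 115 CPM in oligodendrocyte precursors, and 432 and 260 CPM in microglia. Set against non-dopaminergic neurons, this was 21.8% and 17.5% in astrocytes, where the 8 neuron markers had medians of 22.9% and 17.4%. In oligodendrocytes it was 21.2% and 24.0% beside marker medians of 19.5% and 20.5%. In microglia it was 53.5% and 43.0% beside marker medians of 50.9% and 35.1%. The log2 ratios of Htr2c were -0.74 (-0.9987 to -0.48) in astrocytes and -0.73 (-1.07 to -0.39) in microglia. There the 8 neuron markers together were at 4326 CPM in WT and 3837 in CCI, and at 12444 and 8593 CPM. In oligodendrocyte precursors Htr2c had a ratio of -0.52 (-0.93 to -0.11), with the markers at 6713 and 6255 CPM. In oligodendrocytes it was -0.24 (-0.40 to -0.08), while the markers were higher in CCI, 4867 against 4449 CPM. The part of free RNA in these ratios was not tested.

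**Figure D2:**
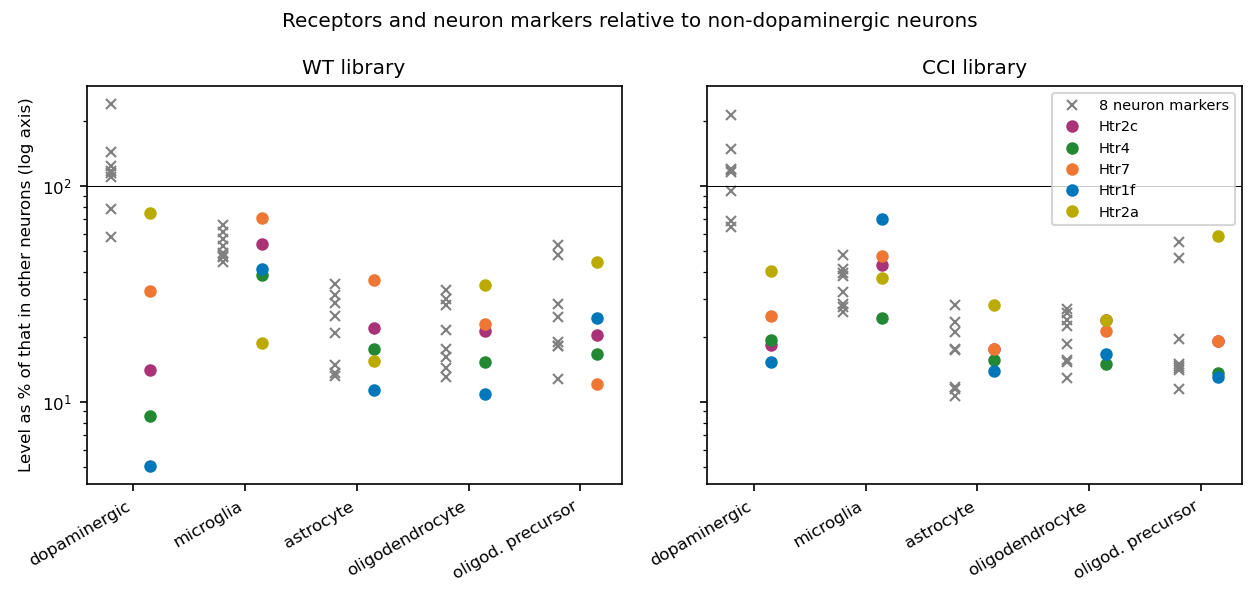
Level of 5 receptors (coloured points) and of 8 general neuron markers (grey crosses) in dopaminergic neurons and 4 glial classes, as a percentage of the level in non-dopaminergic neurons of the same library (log axis). In glia most receptors lie near the span of the neuron markers. The widest departures are in microglia. Htr1f in CCI is at 70.2% (33 UMIs), above the markers at 25.9% to 48.0%. Htr2a in WT is at 18.7% (1 UMI), below the markers at 44.4% to 65.9%. In dopaminergic neurons Htr2c, at 14.03% and 18.3%, lies far below the markers' medians of 116% and 117%.

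Htr1f, a Gi/o-coupled receptor, and Htr7, a Gs-coupled receptor, shared their highest subcluster. Subcluster 19, glutamate neurons of the Synpo2 type led by Rnf220 and Lypd6b, held 50 WT and 83 CCI nuclei. Htr1f lies on chromosome 16 at 64924729 to 65105854 and Htr7 on chromosome 19 at 35958734 to 36057507, both on the minus strand (mm10), and the exons of neither overlap another gene. In this subcluster Htr7 was at 294 CPM (197 to 422; 29 UMIs) in WT and 360 (313 to 412; 209 UMIs) in CCI. Htr1f there was at 182 CPM (108 to 288; 18 UMIs) in WT and 343 (297 to 394; 199 UMIs) in CCI.

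For Htr7 the next subcluster lay apart in both libraries, at 99.3 CPM (67.0 to 142) in WT subcluster 7 and 149 CPM (138 to 160) in CCI subcluster 6, which is also of the Synpo2 type. For Htr1f the next was the Gata3-type subcluster 9, at 152 CPM (125 to 182) in WT, which overlaps subcluster 19, and 167 CPM (144 to 192) in CCI, which does not. After thinning, 29.8% of WT and 28.0% of CCI nuclei of subcluster 19 had an Htr7 UMI (44.0% and 88.0% before, at median depths of 1838 and 6487 UMIs), against 0.504% and 1.82% of oligodendrocytes. For Htr1f the thinned shares were 17.0% and 25.6% (32.0% and 62.7% before), against 0.504% and 1.11% of oligodendrocytes.

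The levels of Htr1f and Htr7 over 17 subclusters with at least 30 nuclei in each library correlated at 0.51 in WT and 0.62 in CCI (Pearson r of log2(CPM + 10), a description, since all points of a library share its depth and free RNA). Of 6744 genes, those most like Htr7 in both libraries were Cntnap5c, Nxph1 and Rgs8, and those most like Htr1f were Cntnap5c, Etl4 and Nxph1. The genes most like Htr2c were Nova1, Gnas and Tmx4, with r of 0.83, 0.83 and 0.72 in WT and 0.73 for each in CCI.

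Htr4, the other Gs-coupled receptor, had a different order. It was highest in subcluster 10, led by Slit3 and Glis3, at 157 CPM (120 to 203) in WT and 123 (97.4 to 153) in CCI. Htr7 was among its lowest there (16.01 and 10.7 CPM, from 6 and 7 UMIs), and Htr2c was low (120 and 90.6 CPM). For Htr4 the intervals of the next subclusters overlapped that of subcluster 10. These were subcluster 5 at 141 CPM in WT and subcluster 2 at 121 CPM in CCI, so the order among them was not resolved. Htr4 was low in Synpo2-type neurons (20.9 and 23.1 CPM) and in dopaminergic neurons (8.67 and 15.6 CPM, where oligodendrocytes had 15.4 and 12.2 CPM).

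Htr2a, Gq-coupled like Htr2c, did not follow it: r over the 17 subclusters was 0.11 in WT and -0.26 in CCI. Among subclusters of at least 30 nuclei in each library it was highest in subcluster 20 in both, led by Gulp1 and Ebf1, at 70.2 CPM (33.7 to 129; 10 UMIs) in the 71 WT nuclei and 103 CPM (72.3 to 141; 37 UMIs) in the 48 CCI nuclei. Subcluster 13 came next, at 52.4 CPM (10.8 to 153; 3 UMIs) in WT and 58.7 (45.8 to 74.2; 70 UMIs) in CCI, and in both libraries its interval overlapped that of subcluster 20. In dopaminergic neurons Htr2a was at 14.3 CPM (9.49 to 20.6) in WT and 7.67 (5.10 to 11.1) in CCI. That was 74.8% and 40.4% of its level in the other neurons. Oligodendrocytes had 6.61 CPM (3.91 to 10.4) and 4.54 (3.15 to 6.35), and in each library the intervals overlapped.

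**Figure D3:**
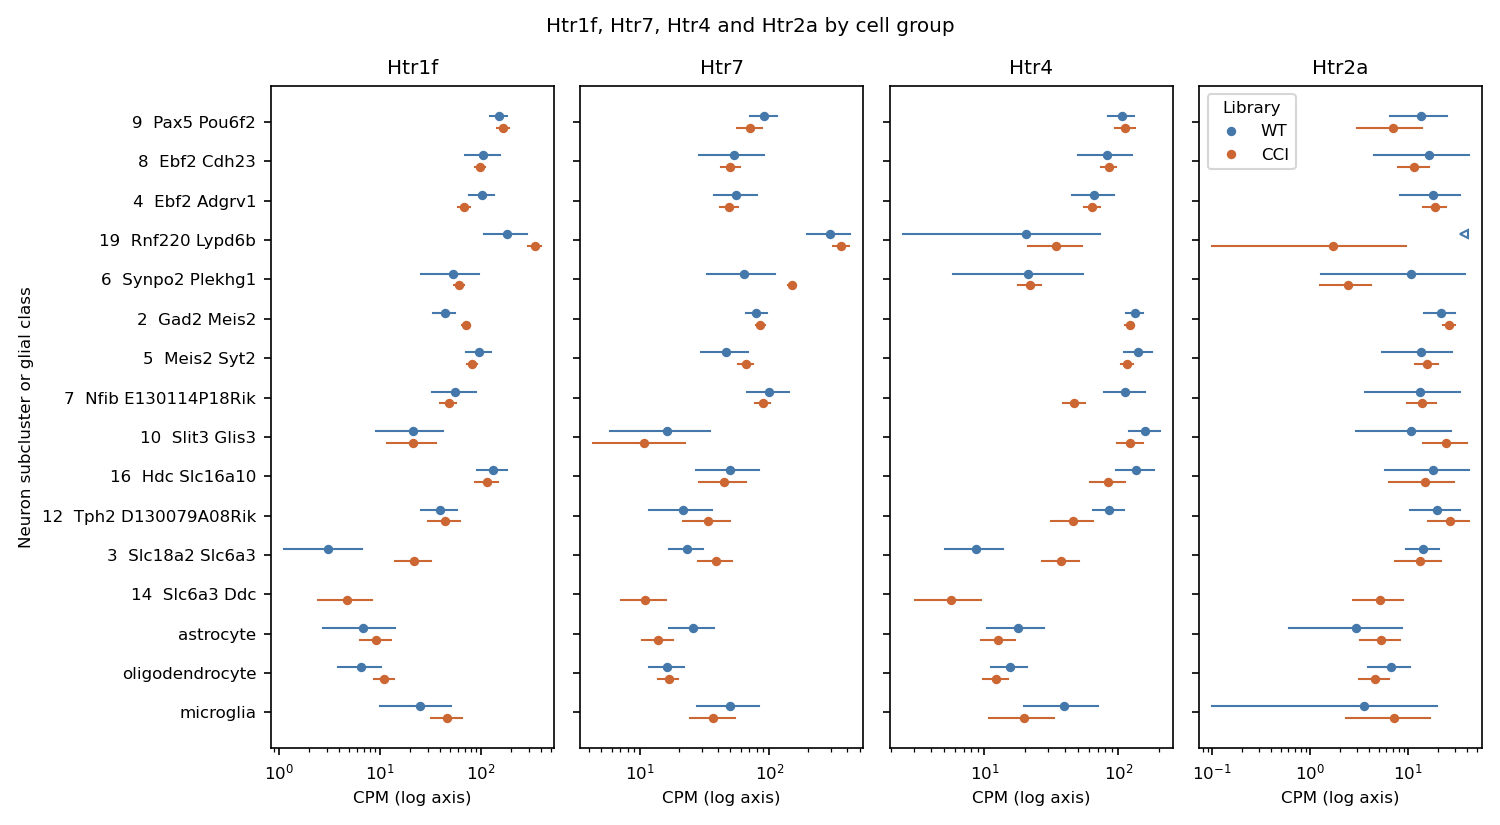
Levels of Htr1f, Htr7, Htr4 and Htr2a in CPM (log axes) by neuron subcluster and glial class for the WT and CCI libraries; points are levels, bars exact 95% Poisson intervals, and an open triangle the upper limit where no UMI was counted. Htr1f and Htr7 peak in subcluster 19. There Htr4 is at 20.3 CPM (2 UMIs) in WT and 34.45 CPM (20 UMIs) in CCI, and Htr2a has 0 and 1 UMIs. Not every subcluster is drawn, and subclusters 20 and 13, where Htr2a was highest, are left out.

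The 5 receptors with few UMIs were localised less firmly. Htr1d, a Gi/o-coupled receptor, was highest in subcluster 12 at 45.7 CPM (30.8 to 65.2) in WT and 30.6 (19.2 to 46.3) in CCI, and this subcluster gave 30 of its 60 WT and 22 of its 124 CCI neuronal UMIs. In CCI the subcluster also held 16 nuclei gated as serotonergic by Tph2 and other markers, and in WT none, and without those nuclei Htr1d was at 45.7 CPM in WT and 35.0 in CCI. Htr1a, the Gi/o-coupled autoreceptor of serotonin neurons, had 26 of its 146 CCI neuronal UMIs in subcluster 17, a somatostatin (Sst) group of 196 CCI and 4 WT nuclei, at 22.8 CPM (14.9 to 33.4). The next CCI subcluster was at 4.64 CPM (2.54 to 7.79). In the nuclei gated as serotonergic, 4 in WT and 27 in CCI, Htr1a had 0 UMIs, with an upper limit of 15.5 CPM in CCI.

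Htr1b, a Gi/o-coupled terminal receptor, had no clear peak: in CCI it was at 18.4 CPM in subcluster 17, 13.7 CPM in subcluster 2 and 13.6 CPM in subcluster 8, with overlapping intervals. Its exons overlap D430036J16Rik on the other strand, and whether counting used strand is not given in the sources used here. Htr5a stayed at or below 14.04 CPM in every subcluster of at least 50 nuclei. Htr3a, the channel subunit, had 4 WT and 14 CCI neuronal UMIs, of which 7 of the CCI UMIs were in subcluster 7, led by Nfib and Reln. The WT and CCI levels over 17 subclusters correlated at 0.90 for Htr2a, 0.89 for Htr2c, 0.83 for Htr7 and 0.81 for Htr1f, and at 0.21 for Htr1b and 0.20 for Htr5a.

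Receptors were seldom detected together at equal depth. After thinning, 50.7% of WT and 55.3% of CCI neurons had a UMI of none of the 10 receptors, 39.2% and 36.0% of 1, and 9.36% and 8.001% of 2. In dopaminergic neurons 84.5% and 85.6% had none, close to the 83.4% and 82.1% of oligodendrocytes, and in the Gata3 type 18.2% and 19.1% had none. Among non-dopaminergic neurons, Htr2c was found in 49.8% (43.7 to 55.9) of WT nuclei with an Htr7 UMI and 42.1% (40.5 to 43.7) of those without, and in CCI in 31.3% (27.0 to 35.9) and 32.9% (31.6 to 34.1). For Htr4 the shares with and without were 40.3% and 42.9% in WT and 39.4% (34.9 to 44.1) and 32.2% (31.01 to 33.5) in CCI. For Htr1f they were 47.8% and 42.3% in WT and 35.7% and 32.6% in CCI, and for Htr2a 31.6% and 42.9% in WT (79 nuclei with a UMI) and 33.3% and 32.7% in CCI. None of the 4 receptors had intervals that lay apart in the same direction in both libraries.

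**Figure D4:**
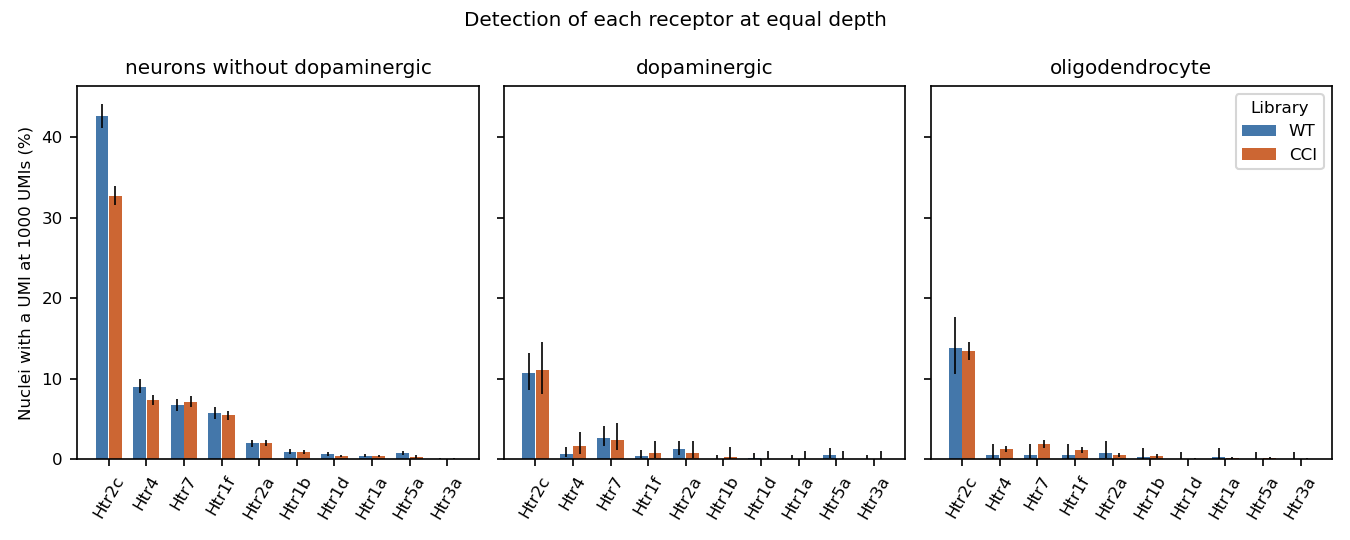
Share of nuclei with at least 1 UMI of each receptor after thinning every nucleus to 1000 UMIs, in non-dopaminergic neurons, dopaminergic neurons and oligodendrocytes of the WT and CCI libraries; bars are shares and error bars exact 95% Clopper-Pearson intervals. Htr2c is found in 42.6% of WT and 32.7% of CCI non-dopaminergic neurons, and dopaminergic neurons show 10.7% and 11.02%, near the oligodendrocytes.

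The comparison of CCI with WT asks whether receptor expression differed after nerve injury. Over all neurons, Htr1d was lower in CCI, 2.62 against 5.49 CPM (log2 ratio -1.07, -1.52 to -0.60), and Htr5a was lower, 2.74 against 5.86 CPM (-1.09, -1.54 to -0.64). Htr1d lies on chromosome 4 at 136423524 to 136444398 and Htr5a on chromosome 5 at 27842149 to 27855088, both on the plus strand, with no other gene's exons over theirs. These were 2 of 9 measured receptors over 1.5-fold lower and 0 over 1.5-fold higher, where 8.80% of 18929 genes were lower and 10.4% higher by that much, and the median log2 ratio was -0.01 for the receptors and 0.04 for all genes. With equal weight for the 17 shared subclusters Htr1d was at -0.53, within 1.5-fold. Both rest on few UMIs, 60 and 124 for Htr1d and 64 and 130 for Htr5a. In oligodendrocytes Htr5a was also lower in CCI, at 2.57 CPM in WT and 1.20 in CCI (7 and 9 UMIs). Htr1d was at 0.37 and 0.67 CPM there (1 and 5 UMIs). The part of free RNA in the neuron ratios was not tested. In subcluster 12, where Htr1d was highest, its log2 ratio was -0.58 (-1.44 to 0.26), and that subcluster made up 3.47% of WT and 1.19% of CCI neurons.

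The other 7 measured receptors were within 1.5-fold. Htr2c had a log2 ratio of -0.27 (-0.31 to -0.23), Htr4 of -0.15 (-0.26 to -0.05), Htr1f of 0.31 (0.18 to 0.44) and Htr7 of 0.26 (0.14 to 0.38). Htr2a, Htr1a and Htr1b had ratios of -0.01, 0.17 and 0.07 with intervals that span 0. Without the dopaminergic neurons Htr2c was at -0.42 (-0.46 to -0.38), Htr4 at -0.32 and Htr1f at 0.14. With nuclei thinned to 1000 UMIs the intervals of Htr1f, 0.06 (-0.17 to 0.29), and Htr7, 0.14 (-0.07 to 0.35), spanned 0.

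Within subclusters the direction of Htr2c was mixed. It was lower in CCI in 12 of 15 measured subclusters, with 5 intervals below 0, and higher in 3, with 2 intervals above 0. The lower values ran to -0.59 in subcluster 1 and included -0.45 (-0.53 to -0.37) in subcluster 0 and -0.28 (-0.38 to -0.19) in subcluster 2. Subcluster 7 went the other way, from 490 CPM (414 to 576) in WT to 896 CPM (859 to 934) in CCI (0.87, 0.63 to 1.12), while Htr4 there was lower, 46.7 against 113 CPM (-1.27, -1.83 to -0.67). In the Synpo2 type Htr2c was at 293 CPM in WT and 160 in CCI (-0.87, -1.19 to -0.53), and of its 2 subclusters the low-Htr2c subcluster 6 made up 7.57% of CCI and 1.36% of WT neurons. Within subclusters 6 and 19 the ratios were -0.50 (-0.9983 to 0.04) and -0.21 (-0.65 to 0.26).

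In dopaminergic neurons 5 receptors could be measured. Htr1f was at 3.06 CPM in WT and 10.1 in CCI (1.73, 0.47 to 3.26), Htr4 at 8.67 and 15.6 CPM (0.85, 0.05 to 1.72) and Htr2a at 14.3 and 7.67 CPM (-0.90, -1.70 to -0.09). So 2 of 5 were over 1.5-fold higher and 1 over 1.5-fold lower, where 10.4% and 6.90% of 12648 genes were. Over the whole class, Htr1f and Htr4 were near or below oligodendrocytes in both libraries (6.61 and 11.1 CPM for Htr1f, 15.4 and 12.2 CPM for Htr4). The CCI nuclei were not uniform. Subcluster 14 had 4.80 CPM of Htr1f and 5.600 CPM of Htr4. The CCI nuclei of subcluster 3 had 21.8 and 37.4 CPM, above the CCI oligodendrocytes. Leaving out subcluster 14 removed 230 CCI nuclei and 0 WT nuclei, so 839 WT nuclei were set against 151 CCI nuclei. The ratio of Htr1f was then 2.83 (1.51 to 4.41), from 6 WT and 25 CCI UMIs. That of Htr4 was 2.11 (1.27 to 3.01), of Htr2a -0.13 (-1.14 to 0.83) and of Htr7 0.74 (0.11 to 1.37).

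**Figure D5:**
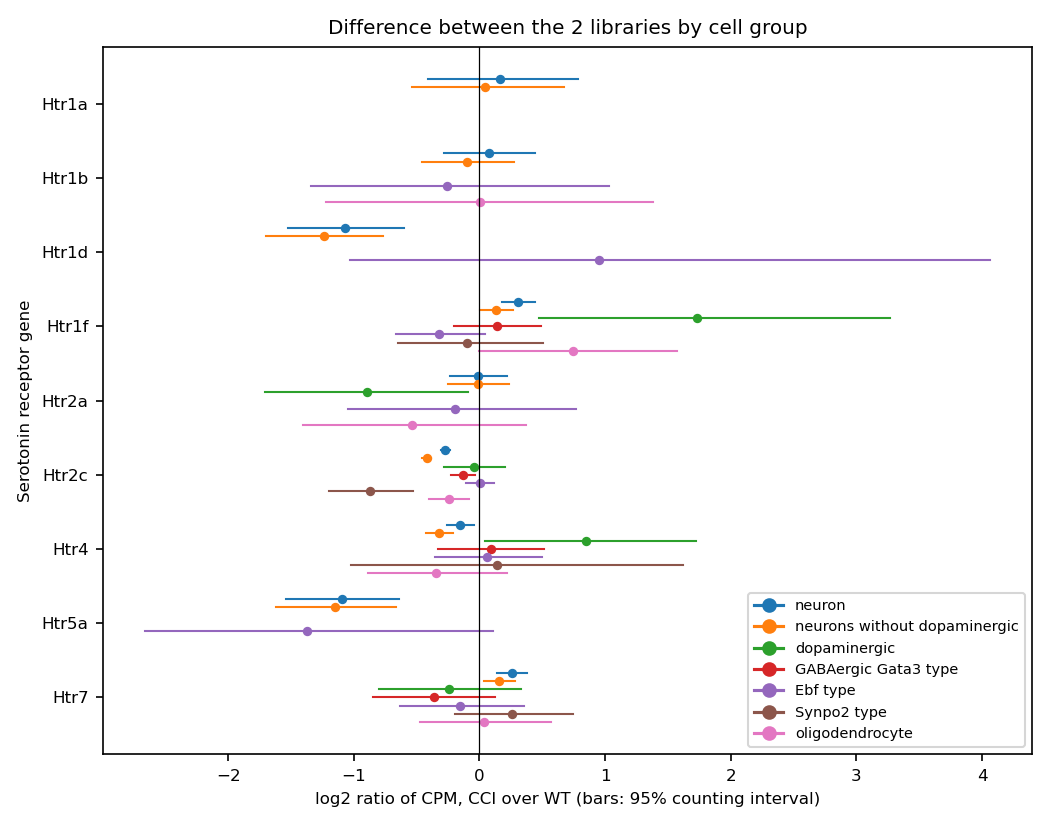
Log2 ratio of CPM, CCI over WT, for 9 receptors in neurons, in neuron groups and in oligodendrocytes, for receptors with at least 20 UMIs in the group; points are ratios and bars exact 95% conditional intervals for counting error. Over all neurons Htr1d and Htr5a lie at -1.07 and -1.09, and the other 7 receptors lie between -0.27 and 0.31.

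Among the other serotonin genes, those of serotonin neurons differed most. Of 8 measured genes of synthesis, transport and breakdown, 5 were over 1.5-fold higher and 2 over 1.5-fold lower in CCI neurons, beside 10.4% and 8.80% of all genes tested in neurons. Tph2, which makes serotonin in the brain, had 25 WT and 671 CCI UMIs (2.63, 2.06 to 3.27), and Slc6a4, the serotonin transporter, 8 and 216 (2.64, 1.63 to 3.87). The serotonergic gate held 4 WT and 27 CCI nuclei. It took neurons with at least 2 UMIs of Tph2, Slc6a4 and Fev together, without thinning. These nuclei are therefore counted from the same UMIs, in libraries of unequal depth. Slc18a2 (-1.26) and Ddc (-0.79), which dopamine neurons also express, were lower alongside the smaller share of dopaminergic neurons. All 8 receptor partners were within 1.5-fold, among them Adarb1 (0.54), an enzyme that edits Htr2c RNA, and of 31 signalling genes 4 were over 1.5-fold higher, among them Kcnj9 (1.07), Rgs4 (0.91) and Rgs9 (0.80), and 0 lower, a share near the 10.4% of all genes that were higher. Htr2b, a receptor gene whose exons overlap Psmd1 on the other strand, was at 23.9 and 20.6 CPM in neurons and at 14.3 and 10.0 CPM in oligodendrocytes.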

How the data were processed

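UMI counts per gene and barcode in the deposited matrices were made by the authors with Cell Ranger (7.1.0 per the file headers) on mm10, and Seurat is also named per the submitters' processing notes. Which annotation release was used, and whether introns were counted, is not given in the sources used here. Nuclei with at least 200 genes, 500 UMIs and at most 20% mitochondrial UMIs were kept. Scrublet (Scanpy 1.11.5) called 9.20% of WT and 6.63% of CCI barcodes doublets, which were removed. Leiden clustering (leidenalg 0.10.2, resolution 1.0) used 2000 variable genes without serotonin receptor genes, scaled within each library, and neurons were clustered again into 22 subclusters. Clusters were named from marker lists. Subclusters without a name made up most neurons.

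Counts were summed per group as CPM with exact Poisson intervals, ratios carry exact conditional intervals and shares Clopper-Pearson intervals (SciPy 1.17.1). Only the ratio intervals were checked on simulated data. The simulated counts followed the Poisson model that these intervals assume, so the check does not cover spread between nuclei or animals. TMM scaling (edgeR 4.0.16) was an alternative. Ratios needed 20 UMIs over both libraries and 50 nuclei in each. All 10 receptors are named throughout. Of the gene identifiers, 99.8% matched GENCODE vM21, which gave coordinates. The receptors, lists and alternatives were chosen with earlier results of these data known. UMI totals of different genes also reflect 3′ capture and gene length, so they give the precision of each receptor and not an order of expression. The values of 1 signalling gene are not reported here.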

Additional observations from a re-analysis of the deposited data

How the results depend on the processing

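No paired analysis was possible because each condition has 1 library. The neuron ratios of the 9 measured receptors moved by less than their counting interval without doublet removal, with 500 genes per nucleus, at resolutions 0.5 and 2.0, with a marker gate, with TMM scaling and without subclusters 1 and 15. Thinning to 1000 UMIs gave 0.057 for Htr1f, -0.33 for Htr2c and 0.14 for Htr7. Equal weight for the 17 shared subclusters gave -0.40 for Htr1b, -0.53 for Htr1d, 0.15 for Htr1f and -0.21 for Htr2c. Without dopaminergic neurons, an alternative chosen after seeing the data like the other omissions of subclusters, the ratios were 0.14 for Htr1f, -0.42 for Htr2c and -0.32 for Htr4. Thinned to 500 UMIs, the neurons with a UMI were 23.4% of WT and 20.7% of CCI for Htr2c, 4.47% and 3.64% for Htr4, 3.15% and 3.75% for Htr7, and 2.40% and 2.69% for Htr1f. With no filter other than at least 1 UMI, 5546 genes were over 1.5-fold higher and 3704 lower in CCI neurons. These counts include genes with UMIs in 1 library only and are not set beside the receptors. The direction turned for Htr7 in astrocytes when thinned (0.79, from 2 WT UMIs) and for Htr2c in microglia with a marker gate (0.55, from 5 WT UMIs), and the cause was not tested. TMM scaling shifted ratios by 0.15 in the Synpo2 type and 0.18 in subcluster 19 and changed the sign of Htr1f in the Synpo2 type (from -0.10 to 0.045) and of Htr1b in oligodendrocytes, both with intervals that span 0. Htr3a had too few UMIs for a ratio in any group.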
